A study of Rattus norvegicus with 17 samples.

Results

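Gpnmb, the autophagy receptor Sqstm1, the ATG8 family genes Gabarapl1 and Map1lc3b, the autophagosome formation genes Wipi1 and Uvrag, the lysosomal genes Mcoln1, Ctsd and Lamp1, and the transcription factor gene Tfeb were followed in 17 arrays of rat tumour tissue. These 10 genes, of 14506 genes in the table, were chosen as genes that rise when inhibition of mTORC1 frees TFEB, and they were chosen by the measured difference between BEZ235 and control in these same libraries. Their values against control are therefore given as a description, with no test, and nothing is read from them. A gene was represented by the probe set with the highest mean among those annotated with its symbol alone. All 10 were measured and no filter on low values was applied.

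NVP-BEZ235 is an inhibitor of PI3K and mTOR. 6 libraries came from rats given 20 mg/kg BEZ235 (4 female, 2 male), 4 from rats given 30 mg/kg BEZ235 (3 female, 1 male) and 7 from control rats given PEG at 20 mg/kg (5 female, 2 male). All rats were 8 months old, on a mixed Sprague-Dawley white eye and Wistar-Kyoto background, and all, controls included, carried a mutation of p27Kip1, which the labels write as Cdknb1. The sample labels call it homozygous and the series design calls it heterozygous. The length of treatment is not given in the sources used here, and nothing in the labels says which libraries came from separate animals, so p-values measure the spread between these libraries, which may be technical. The sample titles number the libraries: controls 1 to 7, 30 mg/kg 1 to 4 and 20 mg/kg 5 to 10. The labels do not call these numbers a batch, but among treated libraries the dose and the range of numbers cannot be told apart, and each dose is therefore also set against the controls of its own numbers.

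The tissue is labelled pituitary adenoma in the samples and pheochromocytoma in the series title. Th and Dbh, enzymes of catecholamine synthesis, averaged 12.29 ± 0.32 and 12.32 ± 0.25 on the log2 scale over all libraries (SD, n = 17). Of the genes of steroid synthesis, Cyp11a1 and Star averaged 12.02 ± 0.26 and 12.11 ± 0.19. The mean of 7 pituitary hormone genes lay between 4.06 and 5.06 in every library, around or below the array medians of 4.95 to 5.11. The markers of adrenal chromaffin cells and adrenal cortex were thus high in these libraries, and the mean of the pituitary hormone genes was not, which goes against the sample label. 2 hormone genes varied widely, with Prl from 4.02 to 9.16 and Pomc from 3.64 to 7.86, where the arrays' upper quartile was 6.85 to 7.10. Prl averaged 6.15 in control and 5.24 in treated libraries, above the array medians. Pomc averaged 4.22 in control and 4.93 in treated libraries. The tissue is called tumour tissue here. In such bulk samples fewer cells of a type and less RNA per cell cannot be told apart.

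Autophagy encloses cell material in a double membrane that fuses with the lysosome, where acid hydrolases degrade it. When mTORC1 is active at the lysosome it phosphorylates TFEB, which is held in the cytosol. When mTORC1 is inhibited, TFEB enters the nucleus and, with the related factors TFE3 and MITF, binds E-box type motifs near lysosomal and autophagy genes. GPNMB is a glycoprotein of melanosomes and lysosomes, known as a target of MITF in melanocytes and as a gene induced in macrophages under lysosomal stress. SQSTM1 (p62) tethers ubiquitinated cargo to ATG8 proteins. GABARAPL1 and LC3B, the product of Map1lc3b, are such proteins, which are coupled to lipid on the growing membrane.

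The promoter windows of 6 of the genes are shown: those of Gpnmb, Mcoln1, Ctsd and Lamp1 because they hold the motifs searched, and those of Gabarapl1 and Sqstm1 as an ATG8 gene and a receptor gene without them. Each runs from 250 bases before to 50 bases after the annotated start in RefSeq (build GRCr8), 5′ to 3′ on the gene's strand. Capitals mark CACGTG, the E-box core, and CATGTG or its reverse CACATG, the core of the M-box.
Gpnmb (chr4:79340878-79341177, plus strand): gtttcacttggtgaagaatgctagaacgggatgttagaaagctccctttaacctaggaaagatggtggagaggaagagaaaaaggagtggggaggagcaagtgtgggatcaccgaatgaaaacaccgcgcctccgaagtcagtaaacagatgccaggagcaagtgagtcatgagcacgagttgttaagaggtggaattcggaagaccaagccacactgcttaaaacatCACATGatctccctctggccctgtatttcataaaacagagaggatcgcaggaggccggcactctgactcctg
Gabarapl1 (chr4:164666082-164666381, plus strand): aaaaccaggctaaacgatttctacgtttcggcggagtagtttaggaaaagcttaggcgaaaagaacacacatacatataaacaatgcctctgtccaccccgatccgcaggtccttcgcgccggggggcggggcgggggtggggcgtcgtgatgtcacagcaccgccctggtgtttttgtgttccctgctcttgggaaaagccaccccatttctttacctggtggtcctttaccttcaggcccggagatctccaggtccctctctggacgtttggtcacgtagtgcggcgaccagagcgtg
Sqstm1 (chr10:35037701-35038000, minus strand): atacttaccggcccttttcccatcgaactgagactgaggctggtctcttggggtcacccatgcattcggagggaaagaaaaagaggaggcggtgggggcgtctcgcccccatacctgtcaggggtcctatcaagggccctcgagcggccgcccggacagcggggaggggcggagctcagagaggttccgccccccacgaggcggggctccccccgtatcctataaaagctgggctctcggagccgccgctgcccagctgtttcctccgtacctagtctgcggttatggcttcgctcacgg
Mcoln1 (chr12:6358008-6358307, plus strand): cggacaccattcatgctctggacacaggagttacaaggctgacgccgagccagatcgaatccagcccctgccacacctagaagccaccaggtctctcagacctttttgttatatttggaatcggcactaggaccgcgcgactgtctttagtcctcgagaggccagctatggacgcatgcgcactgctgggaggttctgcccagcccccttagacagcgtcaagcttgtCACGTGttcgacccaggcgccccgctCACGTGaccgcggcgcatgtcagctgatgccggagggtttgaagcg
Ctsd (chr1:206968772-206969071, minus strand): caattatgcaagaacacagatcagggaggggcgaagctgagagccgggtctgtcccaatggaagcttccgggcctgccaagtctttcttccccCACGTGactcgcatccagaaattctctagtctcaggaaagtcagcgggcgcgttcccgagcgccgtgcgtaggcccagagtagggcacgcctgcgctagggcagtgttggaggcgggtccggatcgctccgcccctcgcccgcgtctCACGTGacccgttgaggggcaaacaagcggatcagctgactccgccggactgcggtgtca
Lamp1 (chr16:83075014-83075313, minus strand): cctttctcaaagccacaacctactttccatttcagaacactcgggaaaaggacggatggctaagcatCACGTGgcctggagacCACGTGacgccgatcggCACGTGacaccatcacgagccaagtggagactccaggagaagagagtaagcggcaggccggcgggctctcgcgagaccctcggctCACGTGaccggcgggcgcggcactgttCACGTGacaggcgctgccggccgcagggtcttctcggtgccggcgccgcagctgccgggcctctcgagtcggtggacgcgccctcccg

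All 10 genes matched a RefSeq promoter window, 11 windows in all because Uvrag has a pair that overlap. Both strands were searched. The E-box CACGTG, which reads the same on both strands, was in the windows of Mcoln1, Ctsd and Lamp1 and in 6.42% of the 33469 windows of the genome. Its extended form TCACGTGA, which contains the shorter motif, was in the same 3 genes and in 0.777% of windows. Lamp1 had 5 E-boxes, at bases -183, -167, -150, -65 and -38 from the start, and the last 2 lay in the extended form. Ctsd had E-boxes at -157 and -10 and Mcoln1 at -22 and 5, and in each gene the one nearer the start lay in the extended form. The M-box TCATGTG, which contains CATGTG, was in 3.56% of windows and in Gpnmb alone among the 10 genes, on the reverse strand at bases -22 to -16. The shorter CATGTG was in 4675 of the 33469 windows and in no other of the 10. None of these letters were in the windows of Gabarapl1, Sqstm1, Map1lc3b, Wipi1, Uvrag or Tfeb, which says nothing of factor binding elsewhere.

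**Figure D1:**
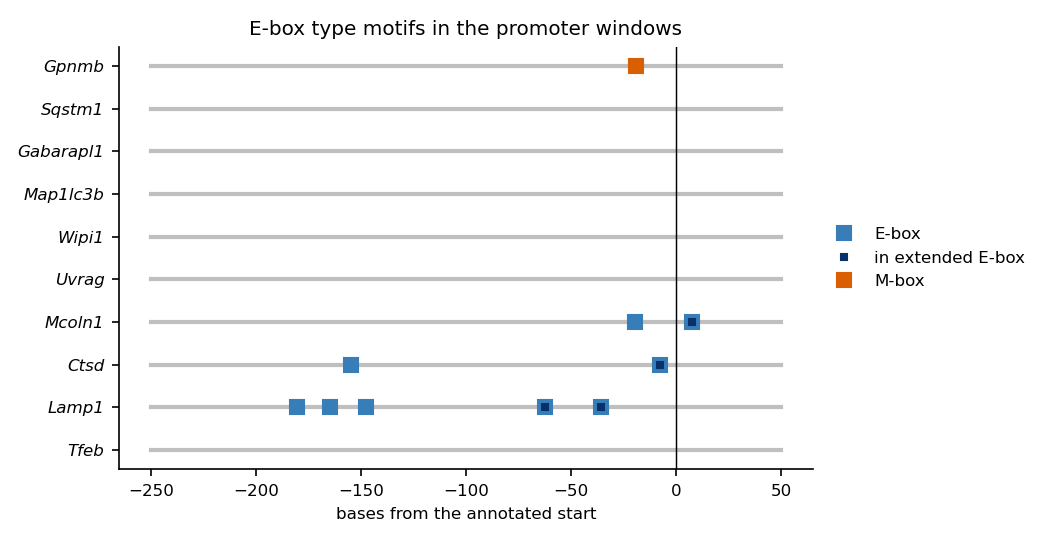
Each grey line is the promoter window of 1 gene, from 250 bases before to 50 after the annotated start (x axis, in bases, start at the black line). Squares mark motif matches on either strand. The E-boxes lie in Mcoln1, Ctsd and Lamp1, the M-box lies in Gpnmb, and the other 6 genes have no match.

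Over the 963 measured genes with the E-box, the median log2 difference between BEZ235 and control was 0.03, with 5 genes called higher and 4 lower. Over the 150 measured genes with the extended E-box it was 0.10, with 2 genes called higher and 0 lower, against 0.0016 over the 11968 measured genes with a window, of which 63 were called higher and 118 lower. The longer CLEAR consensus was in 0.233% of windows and in 0 of the 10 genes. Over the 44 measured genes with it the median was 0.10, and 0 were called in limma. An unadjusted p under 0.05 was found for 14 of these 44 genes. It was found for 35 of the 150 with the extended E-box and 155 of the 963 with the E-box. The 44 lie within the 150, and these within the 963. For the M-box it was 43 of 355 and for CATGTG 153 of 1237. Over all 14506 genes, with or without a window, it was 14.4%. These counts at an unadjusted p take both directions together. Of the 355 genes with the M-box 2 were called higher and 4 lower, with a median of -0.0025, and of the 1237 with CATGTG 5 were called higher and 16 lower, with a median of -0.01. Called means an adjusted p under 0.05 in limma with Benjamini-Hochberg adjustment over all 14506 genes. A motif match is a description of the sequence and not a binding site.

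Gpnmb had the highest difference from control of the 10 genes. Its log2 value ran from 7.16 through a median of 7.61 to 8.00 in the 6 libraries at 20 mg/kg, against 6.31, 6.88 and 6.66 in controls 5 to 7. At 30 mg/kg it was 8.04, 7.96, 8.64 and 8.25, against 6.92, 6.92, 6.51 and 6.82 in controls 1 to 4. Every treated library was above every control library. The mean was 7.83 ± 0.46 in treated libraries (SD, n = 10) and 6.72 ± 0.24 in control libraries (SD, n = 7). The difference adjusted for sex was 1.12 ± 0.18 (SE).

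Among the ATG8 family genes, Gabarapl1 came next. It ran from 9.63 through a median of 9.85 to 10.30 at 20 mg/kg, against 9.25, 9.42 and 9.50 in controls 5 to 7. The 30 mg/kg libraries were at 10.45, 9.83, 10.02 and 10.48, against 9.35, 9.30, 9.32 and 9.12 in controls 1 to 4. Here too no control library reached the lowest treated one. The difference was 0.71 ± 0.11 (SE), from means of 10.03 ± 0.31 in treated and 9.32 ± 0.12 in control libraries (SD, n = 10 and 7).

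Map1lc3b differed less than Gabarapl1 but with a small spread at 20 mg/kg. It ran from 9.60 through a median of 9.62 to 9.65 there, against 9.39, 9.43 and 9.51 in controls 5 to 7. With 30 mg/kg it was 9.70, 9.67, 9.74 and 9.76, against 9.49, 9.50, 9.59 and 9.20 in controls 1 to 4. The treated and control libraries did not overlap but lay close, with the lowest treated at 9.599 and the highest control at 9.586. The difference was 0.22 ± 0.07 (SE), from 9.66 ± 0.06 in treated and 9.44 ± 0.12 in control libraries. A second probe set of the gene, with lower values, averaged 7.96 ± 0.17 in treated and 7.84 ± 0.38 in control libraries, and its difference was 0.12 ± 0.13 (SE). In that probe set the groups overlapped, from 7.75 to 8.33 in treated and from 7.19 to 8.32 in control libraries. The other 9 genes had 1 probe set each.

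Sqstm1 ran from 8.96 through a median of 9.23 to 9.41 at 20 mg/kg, against 8.73, 8.93 and 8.81 in controls 5 to 7. At 30 mg/kg it was 9.36, 8.68, 8.98 and 9.15, against 8.69, 8.70, 8.28 and 8.58 in controls 1 to 4. The groups separated at 20 mg/kg, while replicate 2 at 30 mg/kg lay below 2 of its controls. The difference over both doses was 0.47 ± 0.11 (SE).

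Wipi1 and Uvrag act in the formation of autophagosomes. WIPI1 binds phosphatidylinositol 3-phosphate on forming autophagosomes. Wipi1 ran from 5.86 through a median of 6.20 to 6.40 at 20 mg/kg, against 6.10, 6.07 and 6.28 in controls 5 to 7. In the 30 mg/kg libraries it was 6.46, 6.90, 6.76 and 6.74, against 7.19, 6.45, 5.24 and 6.08 in controls 1 to 4, which span more than all treated libraries together. UVRAG is a subunit of a Beclin 1 and class III PI3-kinase complex. Uvrag ran from 7.10 through a median of 7.37 to 7.51 at 20 mg/kg, against 7.01, 7.35 and 7.23 in controls 5 to 7. Libraries at 30 mg/kg had 7.81, 7.41, 7.26 and 7.58, against 6.95, 6.73, 7.44 and 7.32 in controls 1 to 4. Both genes overlapped their controls. The differences over both doses were 0.19 ± 0.21 for Wipi1 and 0.25 ± 0.11 for Uvrag (SE).

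3 of the genes encode parts of the lysosome itself. MCOLN1 (TRPML1) is the lysosomal calcium release channel, cathepsin D, the product of Ctsd, an aspartic protease of the lumen, and LAMP1 a major glycoprotein of the limiting membrane. Mcoln1 spanned 7.71 to 8.06 at 20 mg/kg, against 7.70 to 8.06 in controls 5 to 7, and was 7.80, 8.25, 8.48 and 8.10 at 30 mg/kg, against 7.79, 7.71, 8.07 and 8.06 in controls 1 to 4. Ctsd spanned 9.36 to 9.79 at 20 mg/kg, against 9.17 to 9.84 in controls 5 to 7, and was 9.60, 9.70, 10.19 and 9.78 at 30 mg/kg, against 10.31, 10.01, 9.54 and 9.51 in controls 1 to 4. Both genes overlapped their controls at each dose. Lamp1 spanned 10.06 to 10.51 at 20 mg/kg, against 9.86 to 10.05 in controls 5 to 7, and was 10.27, 10.44, 10.75 and 10.40 at 30 mg/kg, against 10.47, 10.49, 10.32 and 9.87 in controls 1 to 4. Its groups did not overlap at 20 mg/kg and overlapped at 30 mg/kg. In replicate 3 at 30 mg/kg Mcoln1, Ctsd and Lamp1 each had their highest value of the treated libraries, as Gpnmb did. Over both doses the difference was 0.12 ± 0.11 for Mcoln1, -0.05 ± 0.14 for Ctsd and 0.15 ± 0.12 for Lamp1 (SE).

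Tfeb itself had opposite signs at the 2 doses. It ran from 5.90 through a median of 6.47 to 6.69 at 20 mg/kg, against 6.26, 6.09 and 6.18 in controls 5 to 7. The 4 libraries at 30 mg/kg had 5.92, 5.91, 6.09 and 5.97, against 6.14, 5.97, 6.42 and 6.47 in controls 1 to 4. Replicate 9 was the lowest of the 20 mg/kg libraries and lay below all 30 mg/kg libraries. Over both doses the difference was 0.01 ± 0.13 (SE).

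**Figure D2:**
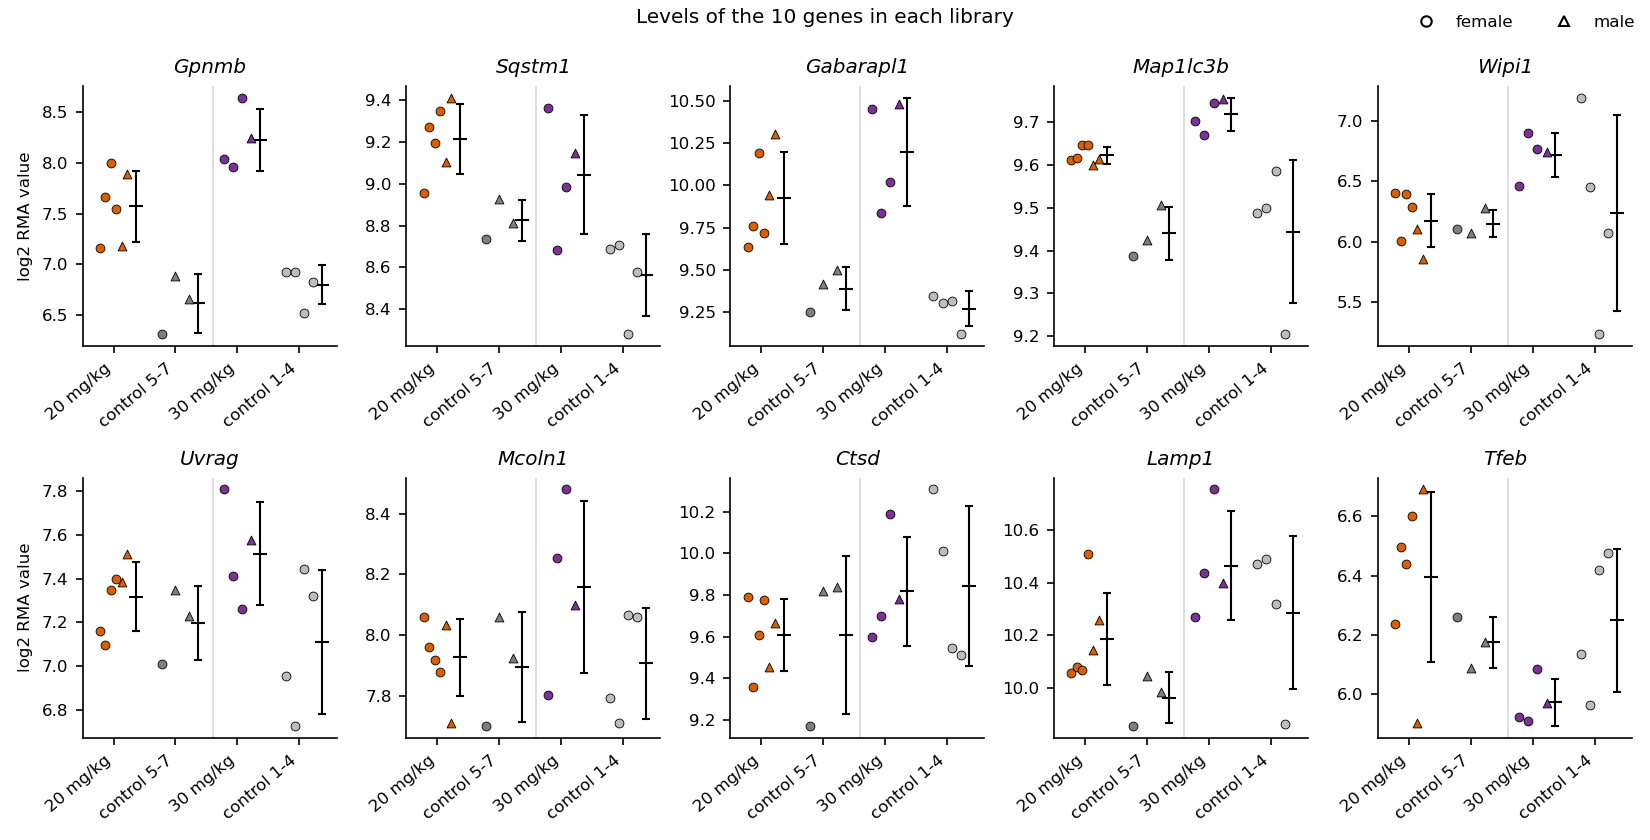
Log2 RMA values (y axis) of the 10 genes in each library, for 20 mg/kg, controls 5 to 7, 30 mg/kg and controls 1 to 4 from left to right. Circles are female and triangles male rats, and the bar beside each group is its mean ± SD. Gpnmb, Gabarapl1 and Map1lc3b have every treated library above every control library.

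Counted over both doses, in 3 of the 10 genes (Gpnmb, Gabarapl1 and Map1lc3b) all treated libraries lay above all control libraries, as in 0.0827% of all genes. For Map1lc3b this held in the probe set used and not in its second one. The median difference of the 10 was 0.21, against -0.0016 over all genes. Since this contrast was in view when the genes were chosen, nothing is read from these counts, and no test of it is given for the 10 genes. Against controls of the same numbers, all 20 mg/kg libraries lay above the controls for 5 genes (Gpnmb, Sqstm1, Gabarapl1, Map1lc3b and Lamp1), as for 3.22% of all genes. All 30 mg/kg libraries lay above theirs for 3 genes (Gpnmb, Gabarapl1 and Map1lc3b), as for 3.46% of all genes.

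The size of the difference at each dose, adjusted for sex, was as follows. For Gpnmb it was 0.99 ± 0.21 at 20 mg/kg against controls 5 to 7 and 1.40 ± 0.21 at 30 mg/kg against controls 1 to 4 (SE). For Gabarapl1 it was 0.64 ± 0.15 and 0.85 ± 0.15 in the same order of doses, and for Sqstm1 0.42 ± 0.15 and 0.46 ± 0.15. On a linear scale the Gpnmb differences are a fold of 1.99 at 20 mg/kg and of 2.65 at 30 mg/kg. The 2 doses share no control library in these values.

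**Figure D3:**
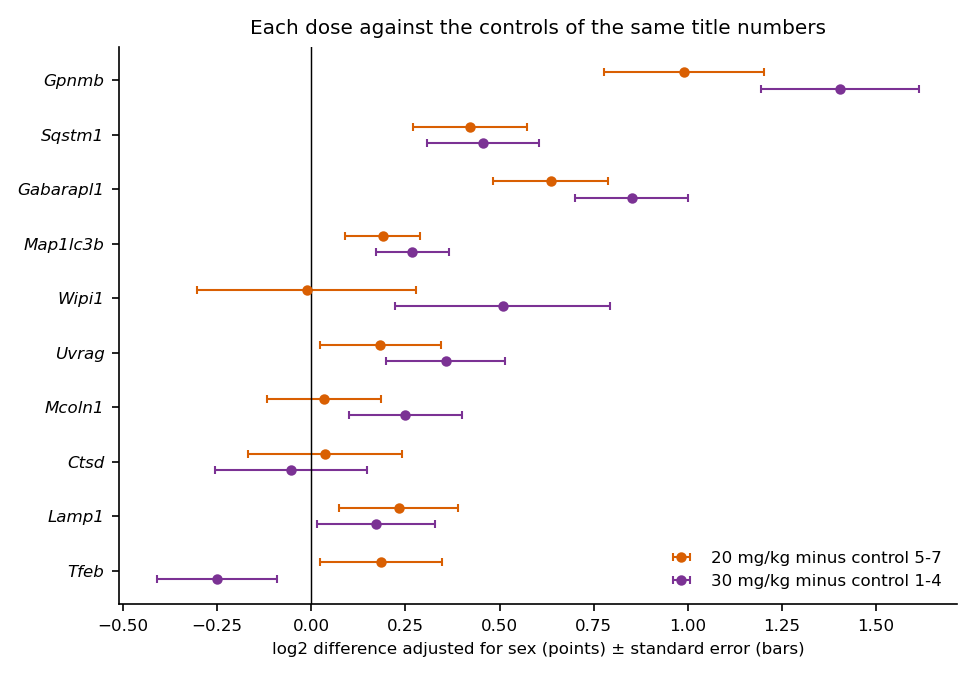
Log2 difference between each dose and the controls of the same title numbers (x axis, adjusted for sex, points ± SE) for the 10 genes, with 20 mg/kg above 30 mg/kg in each pair. Gpnmb lies farthest right at both doses (0.99 and 1.40), and Tfeb lies right of 0 at 20 mg/kg and left of 0 at 30 mg/kg.

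The direct comparison of 30 with 20 mg/kg asks whether the genes differ between the doses. The rule does not state a direction between the doses, but the genes were chosen with earlier results of these libraries known, so these tests are not independent support. Gpnmb was higher at 30 mg/kg by 0.65 ± 0.19 (SE), with a 95% interval of 0.25 to 1.05 and an adjusted p of 0.0339 in limma. Its means were 8.22 ± 0.31 at 30 mg/kg (SD, n = 4) and 7.57 ± 0.35 at 20 mg/kg (SD, n = 6), and 1 library at 30 mg/kg, replicate 2, lay below 1 library at 20 mg/kg. It was the only 1 of the 10 genes called, while 12.1% of all genes were called, 3.92% as higher and the rest as lower at 30 mg/kg, so a share of 1 in 10 is near the background. The call did not hold in female rats alone, where the difference was 0.62 (adjusted p = 0.127), or without replicates 3 or 4 at 30 mg/kg, where it was 0.51 and 0.65 (0.106 and 0.112). It did not hold either without replicates 5, 6, 8 or 9 at 20 mg/kg, where the difference was 0.56 to 0.67 (0.0701, 0.0580, 0.0678 and 0.0657). Cell type markers differed between the doses as well. Of 17 macrophage markers 4 were called lower at 30 than at 20 mg/kg and 0 higher. Of 6 adrenal cortex markers 2 were called higher, and of 6 fibroblast markers 2 were. Of 6 chromaffin markers 2 were called lower, and of 4 endothelial markers 1 was called higher. Their part in the Gpnmb difference was not tested.

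Tfeb differed between 30 and 20 mg/kg by -0.43 ± 0.14 (SE, 95% interval -0.73 to -0.13) and did not pass the threshold in limma (adjusted p = 0.0545). It passed with each array centred on its median (adjusted p = 0.0338) and without control replicate 2 or 4 or 20 mg/kg replicate 9 (0.0455, 0.0497 and 0.0232). Gabarapl1 differed by 0.29 ± 0.13 (adjusted p = 0.154, 95% interval 0.01 to 0.57) and Wipi1 by 0.53 ± 0.25 (adjusted p = 0.166, 95% interval 0.01 to 1.06). These 4 genes had an unadjusted p under 0.05, where 29.1% of all genes did. Sqstm1 had the opposite sign to Gpnmb, -0.16 with a 95% interval of -0.44 to 0.13. All 30 mg/kg libraries lay above all 20 mg/kg libraries for Map1lc3b and Wipi1, as for 5.16% of all genes, and below them for 0 of the 10, as for 7.42% of all genes.

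When each dose was first set against the controls of its own numbers, the difference between the doses was called for 0 of the 10 genes and for 0% of all genes in limma, and 6.69% of all genes, but 0 of the 10, had an unadjusted p under 0.05. For Gpnmb this difference was 0.41 ± 0.31 (SE), with a 95% interval of -0.23 to 1.06. For Tfeb it was -0.44 ± 0.23, with an interval of -0.93 to 0.06, and for Wipi1 0.52 ± 0.42, with an interval of -0.37 to 1.41. The intervals include 0 as well as the sizes seen in the direct comparison.

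None of the 10 genes was called between male and female rats (limma, lowest adjusted p 0.333), where 0.241% of all genes were. None of the 10 had an unadjusted p under 0.05, where 1285 of all 14506 genes were higher and 936 lower in males. A count of 0 in 10 is near that background. The differences, male minus female, ran from -0.15 to 0.25, and the highest was that of Gabarapl1 (95% interval -0.003 to 0.51). The difference between BEZ235 and control was not called to differ by sex for any of the 10 (lowest adjusted p 0.8291), where 0.00689% of all genes were. An unadjusted p under 0.05 was found for 0 of the 10. Over all 14506 genes it was found for 449 with a positive and 502 with a negative interaction, so 0 in 10 is again near the background. With 5 male libraries these intervals were wide, up to 1.003 to either side of the estimate.

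The rest of the pathway was read from 7 lists of lysosome and autophagy genes, which do not include the 10 genes and were tested in the same fit of BEZ235 against control. Of 132 measured genes 1 was called higher and 1 lower, together 1.52%, where 1.48% of all genes were called (0.517% higher and 0.965% lower). The count with an unadjusted p under 0.05 was 28 higher and 7 lower of 132, while over all genes 1141 were higher and 954 lower, together 14.4%. 83 of the 132 differences (62.9%) were positive, against 49.6% over all genes, and the median was 0.08, against -0.0016. With the range of title numbers as a term in the fit 12 of the 132 were called, where 712 of all 14506 genes were, and with array weights 9 were, where 424 of all genes were. At 20 mg/kg against control 1 of the 132 was called higher and 0 lower, 0.758% where 1.18% of all genes were called, and at 30 mg/kg 11 were called higher and 7 lower, 13.6% where 8.55% of all genes were.

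The autophagy initiation, nucleation and fusion list held the gene that rose. Wdr45, which encodes the WIPI family protein WIPI4, rose by 0.46 ± 0.09 (SE, limma adjusted p = 0.0237) and averaged 6.95 ± 0.08 in treated and 6.48 ± 0.35 in control libraries (SD, n = 10 and 7). All 10 treated libraries lay above the control mean. The difference was 0.67 among libraries numbered 1 to 4 and 0.25 among those numbered 5 to 10, not passing the threshold within either (adjusted p = 0.213 and 0.275), nor without the sex term (0.0588). 18 of 23 measured genes of this list had positive differences, with a median of 0.14, and the other 22 were not called, while 7 of the list were higher and 1 lower at an unadjusted p under 0.05.

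The lysosomal hydrolases held the gene that fell. Acp5, tartrate-resistant acid phosphatase, known from osteoclasts and macrophages, fell by 0.45 with a standard error of 0.10 (log2, limma adjusted p = 0.0409). It averaged 5.31 ± 0.17 in treated and 5.76 ± 0.23 in control libraries. Every one of the 10 treated values was under the control mean, but the groups overlapped (highest treated 5.54, lowest control 5.38). The difference was -0.64 among libraries numbered 5 to 10 (adjusted p = 0.0359) and -0.22 among those numbered 1 to 4 (0.760). The call was lost in 16 of 28 alternatives, with adjusted p-values over the alternatives of 0.0152 to 0.760. Of the 34 measured hydrolases 17 had positive differences, with a median of 0.01, and 1 was higher and 4 lower at an unadjusted p under 0.05.

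In the remaining lists 0 genes were called in limma. For the V-ATPase, the pump that acidifies the lysosome, 12 of 18 differences were positive and the median was 0.15, with 8 higher and 1 lower at an unadjusted p under 0.05. The lower one, Atp6v1g2, had the difference farthest from 0 of the list (-0.46, adjusted p = 0.140) and was named after its value was seen. Its genes with the lowest p were Atp6v1f (0.31, adjusted p = 0.0684) and Atp6v0a1 (0.35, adjusted p = 0.135). For lysosomal membrane and transport genes 17 of 24 were positive and the median was 0.10, with 7 higher and 1 lower at an unadjusted p under 0.05. The sialic acid exporter Slc17a5 differed by 0.45 (adjusted p = 0.0557) and the lysosomal membrane protein gene Mfsd8 by 0.37 (adjusted p = 0.118).

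Of the ATG8 family and conjugation genes 9 of 11 were positive, with a median of 0.09 and with 3 higher and 0 lower at an unadjusted p under 0.05. Atg12, a ubiquitin-like conjugation protein, differed by 0.32 (adjusted p = 0.0585) and the protease Atg4b by 0.30 (adjusted p = 0.177). The other autophagy receptors were around 0, with 3 of 10 positive, 0 with an unadjusted p under 0.05 and a median of -0.05. Among them Nbr1, which like SQSTM1 binds ubiquitinated cargo, differed by 0.24 (adjusted p = 0.351) and Calcoco1 by 0.18 (adjusted p = 0.441). Of the MiT/TFE factors and their regulators 7 of 12 were positive, with a median of 0.04 and with 2 higher and 0 lower at an unadjusted p under 0.05. Lamtor3, a subunit of the Ragulator complex that anchors mTORC1 signalling at the lysosome, differed by 0.63 ± 0.16 (SE, adjusted p = 0.0622) and Flcn, a regulator of the Rag GTPases, by 0.38 (adjusted p = 0.114).

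**Figure D4:**
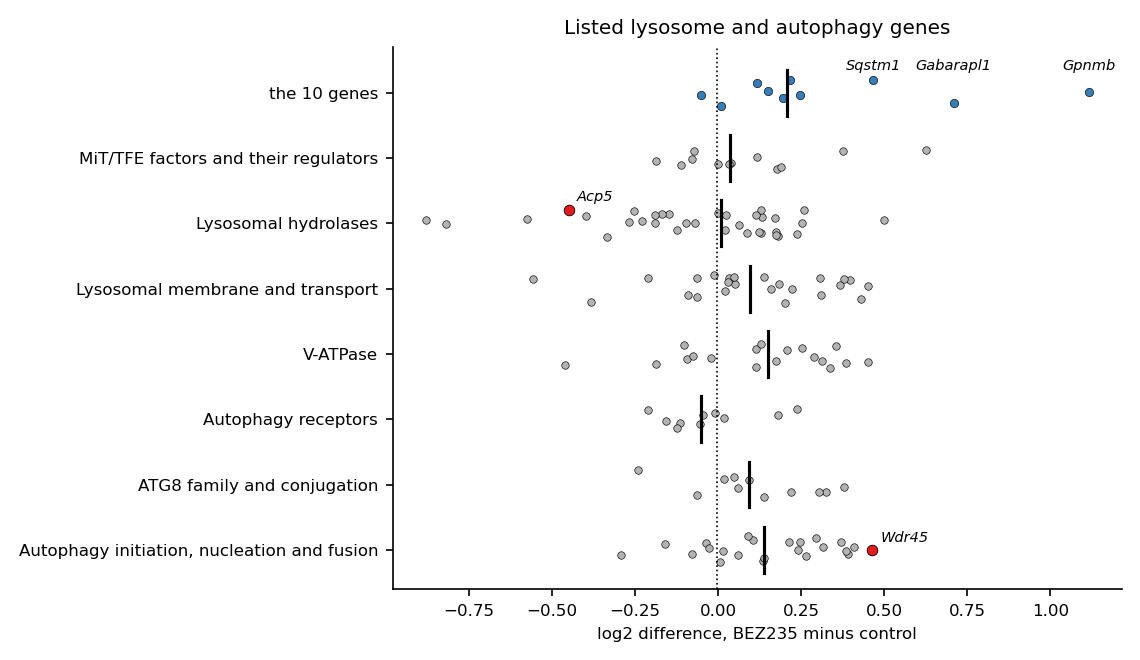
Log2 difference between BEZ235 and control (x axis) for the 10 genes in blue and for each measured gene of 7 lists, 1 point per gene. Black bars are list medians and the dotted line is the median of all genes. Red points, Wdr45 and Acp5, are the 2 of 132 listed genes past the threshold, and Gpnmb (1.12) lies right of every listed gene.

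GPNMB is also made by macrophages and melanocytes, so their markers are given beside it. Of 18 macrophage markers 17 were measured and 0 were called in limma, with 6 differences positive, 6 lower at an unadjusted p under 0.05 and a median of -0.21. The mean of the 17 ran from 6.76 to 7.51 in treated libraries and from 7.04 to 7.55 in control libraries. The lowest was that of Spp1 (-1.12, limma adjusted p = 0.142). The other negative ones included Cd68, a lysosomal glycoprotein of macrophages (-0.37, adjusted p = 0.340), Csf1r (-0.37, 0.339) and Aif1 (-1.04, 0.121). Fcer1g (-0.72, 0.0746), Tyrobp (-0.68, 0.0830) and Trem2 (-0.21, 0.472) were negative as well. The positive ones were those of Mrc1 (0.29), Cd14 (0.22), Lgals3 (0.18), Itgam (0.14), Cd163 (0.07) and Adgre1 (0.01), with adjusted p-values of 0.368 (Mrc1) and above. Set against control at 30 mg/kg alone, 4 of the 17 were called lower and 0 higher, where 8.55% of all genes were called, and at 20 mg/kg 0 were, with 1 higher and 4 lower at an unadjusted p under 0.05. At 30 mg/kg, replicate 3 had both the highest Gpnmb (8.64) and the highest macrophage mean of the treated libraries (7.51), while the other 3 had macrophage means of 6.99, 6.76 and 6.82 beside Gpnmb values of 8.04, 7.96 and 8.25. Against all controls together the Gpnmb difference at 30 mg/kg was 1.51, and without replicate 3 it was 1.36. The part of macrophages in the Gpnmb values was not tested.

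Melanocyte markers were at the bottom of the arrays. 4 of 6 were measured, their mean ran from 3.32 to 3.73 in treated libraries and from 3.37 to 3.73 in control libraries, and the lower quartile of the arrays was 3.65 to 3.91. Tyr and Mlana, which define the type, averaged 3.29 and 3.59 over all libraries. Lymphocyte markers did separate the groups. The mean of 5 genes ran from 4.16 to 4.43 in treated libraries and from 4.59 to 5.21 in control libraries. Both ranges lay around or below the array medians of 4.95 to 5.11. Of these markers Cd2 fell by 0.49 and Cd3d fell by 0.99 in log2 units (limma adjusted p = 0.0104 and 0.0446). Cd3e and Cd8a differed by -0.48 and -0.43 (adjusted p = 0.0919 and 0.118) and Cd79b by -0.10 (0.802). Over both doses 1 of 6 fibroblast markers, Col3a1, fell (by 0.68, limma adjusted p = 0.00644) and 0 were called higher. The 1 positive difference was that of Pdgfra (0.71, adjusted p = 0.198). At 30 mg/kg against control, where 8.55% of all genes were called, 1 of the 6 was called higher and 1 lower. At 20 mg/kg, where 1.18% were, 2 of the 6 fibroblast markers were called lower and 0 higher. Their part in the values of the 10 genes was not tested.

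**Figure D5:**
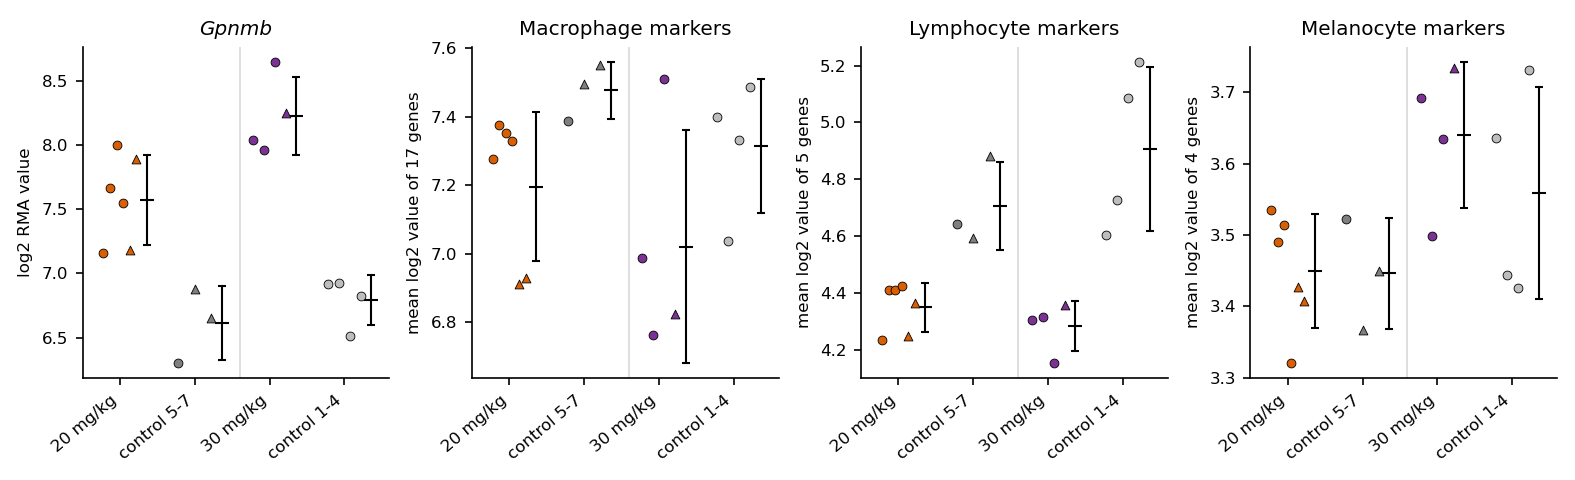
Gpnmb and the mean log2 value of the macrophage, lymphocyte and melanocyte markers (y axes) in each library, for 20 mg/kg, controls 5 to 7, 30 mg/kg and controls 1 to 4 from left to right, with circles for female and triangles for male rats and bars for mean ± SD. Gpnmb is higher and the lymphocyte mean lower in every treated library than in any control library, and the melanocyte mean stays between 3.32 and 3.73.

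Likeness of pattern was ranked among genes above the median level, passing over symbols that start with LOC or RGD or hold -ps. Among these, the genes most like Gpnmb over the 17 arrays were Creb3l1 (r = 0.912), Whamm (0.873), Flt1 (0.865), Gabarapl1 (0.852) and Slc3a2 (0.851). Those most like Gabarapl1 were Polg (0.896), Pde10a (0.884), Flt1 (0.883), Herpud2 (0.869) and Creb3l1 (0.856). Those most like Sqstm1 were Epc2 (0.884), Eif5 (0.880), Spred2 (0.880), Ing3 (0.879) and Acin1 (0.876). These r values contain the group differences, and on residuals after group and sex those of the Gpnmb list were 0.403 to 0.659. Those of the Gabarapl1 list were 0.354 to 0.618 and those of the Sqstm1 list 0.646 to 0.765. The residual r of Gpnmb with Gabarapl1, 0.403, was -0.085 among libraries numbered 1 to 4 and 0.738 among those numbered 5 to 10. All these r values are Pearson correlations given as a description, over arrays that share their groups. Flt1 and Creb3l1 stood on both the Gpnmb and the Gabarapl1 list.

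Among the 45 pairs of the 10 genes, on residuals after group and sex, Ctsd and Lamp1 had the highest correlation (Pearson r = 0.740, Spearman rho = 0.664, n = 17). It was 0.822 among libraries numbered 1 to 4, 0.590 among those numbered 5 to 10 and 0.622 without the 2 libraries farthest from the median of Ctsd. The lowest was that of Gabarapl1 and Mcoln1 (r = -0.636, rho = -0.618, and -0.737 and -0.533 within the same number ranges). These values are descriptions with no test, and the highest and lowest of 45 pairs were picked after they were seen.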

How the data were processed

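17 Affymetrix array libraries of rat tumour tissue were analysed. The deposited table holds log2 values per probe set, made by the authors with RMA in Affymetrix Expression Console 1.3.0.187, per the submitters' processing notes. RMA values are relative between arrays, and the number of arrays limits the precision. Of 29214 probe sets 15310 carried 1 gene symbol, 323 several and 13581 were not listed in the platform annotation, and 15279 matched a RefSeq gene ID. The probe set with the highest mean stood for a gene (14506 genes, 527 with several). limma 3.58.1 in R 4.3.3 fitted treatment and sex across all genes, with doses as 3 groups, or as 4 with the controls split by title number, and with Benjamini-Hochberg adjustment over all genes at a threshold of 0.05. The fits were tested on simulated data with independent noise for each gene. Those data hold no correlation between genes and no differences in quality between arrays. Among libraries numbered 1 to 4 only 30 mg/kg replicate 4 is male, so the sex term there absorbs that library.

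The 10 genes, the lists and the tests were chosen with earlier results of these data known. Named genes were the 10, every listed gene past the threshold, otherwise the 2 with the smallest p per pathway list, and the 5 genes most like Gpnmb, Gabarapl1 and Sqstm1. The tissue and cell type marker genes and the pairs of genes were named after their values were seen. Alternatives were the sex term, the title numbers as a term, as a replicate block or as subsets, female rats only, array weights, quantile normalization, median centring, mean probe sets, a filter on dim genes, a stricter threshold and leaving out each library.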

Additional observations from a re-analysis of the deposited data

Results flagged for a closer look

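Of 66 groups checked over 22 genes, 1 had a library far from the others. Atg4b, the ATG4 protease gene, was 5.996 in 20 mg/kg replicate 10, the highest of its group, and the nearest library was at 5.53. The gap was a share of 0.629 of the group's range, just over Dixon's 95% critical value for 6 libraries. Chance alone gives about 1 such gap in 20 groups.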

How the results depend on the processing

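The BEZ235 and control differences of Gpnmb (0.97 to 1.42), Gabarapl1 (0.63 to 0.83), Sqstm1 (0.41 to 0.52), Map1lc3b (0.17 to 0.26), Uvrag (0.18 to 0.38), Mcoln1 (0.05 to 0.27) and Lamp1 (0.07 to 0.25) were positive in all 28 alternatives, while Wipi1 (-0.03 to 0.47), Ctsd (-0.15 to 0.06) and Tfeb (-0.27 to 0.17) took both signs. The 10 genes were chosen by this difference in these same libraries, so its sign over the alternatives is a description only. Counts of called genes moved widely, and the cause was not tested. For BEZ235 against control (215 genes) they were 100 without the sex term, 712 with the title-number set as a term, 16 in numbers 1 to 4, 12 in female rats, 424 with array weights, 28 at a threshold of 0.01 and 46 to 249 with 1 library left out. The libraries that moved it by over 1.5 times were control 1 (110), 4 (141), 6 (71) and 7 (46), 30 mg/kg 1 (122), and 20 mg/kg 7 (139), 8 (119) and 10 (97). The other lysosome and autophagy genes called (2) were in the same settings 1, 12, 0, 1, 9, 0 and 1 to 4, and 1 in numbers 5 to 10. For 30 mg/kg against control (1240) they were 437 with same-number controls, 251 in female rats, 383 at 0.01 and 456 to 1563 with 1 library left out (lowest without 30 mg/kg 4, and 799 without 30 mg/kg 3). For 20 mg/kg against control (171) they were 55 without sex, 52 with same-number controls, 2 in female rats, 577 with array weights, 103 after quantile normalization, 268 after median centring, 12 at 0.01 and 22 to 470 with 1 library left out (98, 470 and 81 without controls 1, 5 and 7, and 32, 22, 26 and 65 without 20 mg/kg 6, 7, 8 and 10). For 30 against 20 mg/kg (1752) they were 405 in female rats, 302 at 0.01 and 321 to 2172 with 1 library left out (1164 and 321 without 30 mg/kg 3 and 4, and 923, 1125 and 874 without 20 mg/kg 6, 7 and 8). For the dose difference against same-number controls (0) they were 1 after quantile normalization and 0 to 8 with 1 library left out. For male against female (35) they were 128 with the set term, 639 with array weights, 94 after median centring, 0 at 0.01 and 0 to 181 with 1 library left out, and for the interaction (1) 0 with the set term, 29 with array weights, 0 after quantile normalization, 0 at 0.01 and 0 to 14 with 1 library left out. None of the 10 genes was called in the last 3 comparisons under any alternative run.

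Same-numbered control and treated libraries did not deviate together. The correlation of their deviations from the group means ran from -0.18 to 0.08 over 7 pairs. Of the 7 treated libraries 0 correlated best with the control of their own number. Sex was not taken out of these deviations, and the pairs numbered 4, 6 and 7 join a male and a female rat. Whether the numbers pair the libraries is therefore not settled by these values. With the title number as a replicate block 231 genes and 2 other lysosome and autophagy genes were called, and Acp5 was not (adjusted p = 0.104).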
